A study of Caenorhabditis elegans with 2 samples.

Results

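The regions described here are 2486 weaker UNC-62 peaks that rank just below the list of reproducible peaks from embryos of the nematode Caenorhabditis elegans. They were chosen by signal from the 17083 peaks of the authors' pooled list on build ce11. The authors deposited this list and those of the replicates as peaks and background, so an entry need not be a bound site. The authors' list that passed the irreproducible discovery rate (IDR) step holds 2754 peaks and is identical to the 2754 strongest pooled peaks, so ranks 2755 to 5508 are the next peaks in the same number. Of those ranks 1 was mitochondrial and 2753 were on the 6 nuclear chromosomes, and the 2486 kept (90.3%) were overlapped by at least 1 bp by a peak in the lists of both replicates. Of the 267 left out, 51 had no peak in replicate 1 only, 215 had none in replicate 2 only and 1 had none in either. They are set beside the 2732 nuclear peaks of the IDR list and, where a trend along the ranks matters, beside the 1927 peaks of ranks 5509 to 8262 that passed the same filter.

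UNC-62 is the worm's Meis/Prep homolog, a TALE-class homeodomain protein that binds DNA together with PBC-class partners such as CEH-20 and, at some sites, with Hox proteins. It takes part in embryonic patterning, in muscle and neuron development and in cell migration, and worms that lack its function die as embryos. Chromatin immunoprecipitation gives each bound stretch a signal, and a threshold on reproducibility separates the strong signals from a long tail of weaker ones.

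The material was whole mixed-stage embryos of strain OP600, from males and hermaphrodites together, with age not known. The strain carries the unc119(ed3) allele and the insertion wgIs600, in which unc-62 is joined to TY1, EGFP and FLAG and which also holds unc119. The genotype lists no mutation of the endogenous unc-62, so tagged protein comes on top of it. There was 1 group with 2 biological replicates from separate biosamples, and no second condition or control library is among the samples. In whole embryos, binding in few nuclei and weaker binding in many cannot be told apart in a peak's signal. The sources used here do not give read depth, so how depth limits these peaks is unknown, and every interval below is an exact binomial 95% interval for counting error alone.

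The sequences under the summits show the kinds of site described below. Each is the stretch from 50 bp before to 50 bp after the summit on the + strand of ce11 of a weaker peak that holds the site. For each site the 3 strongest such peaks are shown among those in intergenic or intronic sequence with no protein-coding exon in the window, away from small RNA genes and on 5 of the 6 nuclear chromosomes, so some stronger peaks with the site are not shown. The composite site, TGAT directly followed by TGACAG with at most 1 mismatch, is the joint site of a PBC protein and a Meis protein. It lay in introns of ugt-50 (chrX:12692078-12692178), which encodes a UDP-glucuronosyltransferase, and of adt-1 (chrX:12679672-12679772), which encodes an ADAMTS metalloprotease. The third lay 1040 bp upstream of uda-1 (chrV:10003665-10003765), an apyrase gene. Capitals mark the composite site, which reads from right to left in the ugt-50 and uda-1 windows. The ugt-50 and adt-1 windows hold TGACAG within it and the uda-1 window does not.
ugt-50: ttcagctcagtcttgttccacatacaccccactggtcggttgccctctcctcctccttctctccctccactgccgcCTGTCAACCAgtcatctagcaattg
adt-1: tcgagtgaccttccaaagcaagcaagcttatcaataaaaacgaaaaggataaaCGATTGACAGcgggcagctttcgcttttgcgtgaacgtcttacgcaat
uda-1: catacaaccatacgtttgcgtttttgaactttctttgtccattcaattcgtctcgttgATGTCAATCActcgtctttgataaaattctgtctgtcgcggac

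TGACAG alone is the core site of Meis proteins. By the same selection, the 3 peaks shown with it and without the composite site were nearest to T23E1.1 (chrIV:3160960-3161060, 9649 bp downstream of the start), in an intron of fln-2, a filamin gene (chrX:9402093-9402193), and 4869 bp upstream of C39B10.3 (chrX:10439217-10439317). Capitals mark the hexamer, which reads as CTGTCA on this strand in all 3 windows.
T23E1.1: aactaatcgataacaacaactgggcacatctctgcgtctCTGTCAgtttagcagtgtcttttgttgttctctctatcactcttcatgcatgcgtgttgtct
fln-2: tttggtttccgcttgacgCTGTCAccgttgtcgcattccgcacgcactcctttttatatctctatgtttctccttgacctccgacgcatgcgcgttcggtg
C39B10.3: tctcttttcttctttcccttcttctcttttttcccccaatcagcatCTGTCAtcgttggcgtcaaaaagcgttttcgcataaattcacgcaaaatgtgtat

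GAGAGA led the hexamers that were rarer in weaker peaks than in the IDR list, and GA repeats are the binding site of GAGA factor in Drosophila. It is shown upstream of sec-24.1, a COPII vesicle coat gene (chrIV:11566306-11566406), of EGAP1.1 (chrIII:5938051-5938151) and of eat-6, which encodes the alpha subunit of the sodium-potassium pump (chrV:13130661-13130761). Capitals mark GAGAGA or its reverse complement TCTCTC, and in the eat-6 window they run on where copies overlap.
sec-24.1: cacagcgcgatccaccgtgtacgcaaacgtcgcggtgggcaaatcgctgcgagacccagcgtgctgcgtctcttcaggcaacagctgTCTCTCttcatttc
EGAP1.1: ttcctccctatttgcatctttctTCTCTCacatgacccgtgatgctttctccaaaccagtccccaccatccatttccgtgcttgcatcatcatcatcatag
eat-6: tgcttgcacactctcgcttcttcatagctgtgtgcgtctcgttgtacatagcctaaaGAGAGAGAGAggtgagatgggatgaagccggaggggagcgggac

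The signals of these peaks were low and close together, as the rule made them. Signal in the pooled list, a value of the authors' peak caller, ran from 35.4 to 59.9 with a median of 44.2, against a median of 94.4 in the nuclear IDR list. The −log10 q that the authors deposited ran from 0.694 to 2.43 with a median of 1.295. There was no step at either limit: the signal was 59.8945 at rank 2754 and 59.8837 at rank 2755, and 35.4014 at rank 5508 and 35.389 at rank 5509. Of the 2486 peaks 2483 had the fixed width of 376 bp, so the summit is used throughout.

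Most weaker peaks were not among the strongest of both replicates. The list of replicate 1 holds 21749 peaks and that of replicate 2 exactly 30000, so ranks in the 2 lists are not on one scale and a wider spread of ranks in replicate 2 cannot be told apart from the longer list. The nearest overlapping peak had a median rank of 4470 in replicate 1 (quartiles 3433.5 and 6031.75) and of 5424 in replicate 2 (3257.5 and 10236). Both replicates had it within their own 5508 strongest peaks for 719 weaker peaks (28.9%), against 92.6% of the 2706 IDR peaks found in both lists. Replicate 1 alone did for 995 (40.02%), replicate 2 alone for 535 (21.5%) and neither for 237 (9.53%). Across the 2486 peaks Spearman's rho between the signals of the replicates was −0.31, against 0.589 across the IDR peaks. The peaks share their libraries and were selected on the signal that both replicates' reads made together, so these values describe the choice and carry no test. In 54 cases the overlapping peak of at least 1 replicate was also the nearest peak of an IDR peak, so its rank there belongs to a stronger neighbour.

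**Figure D1:**
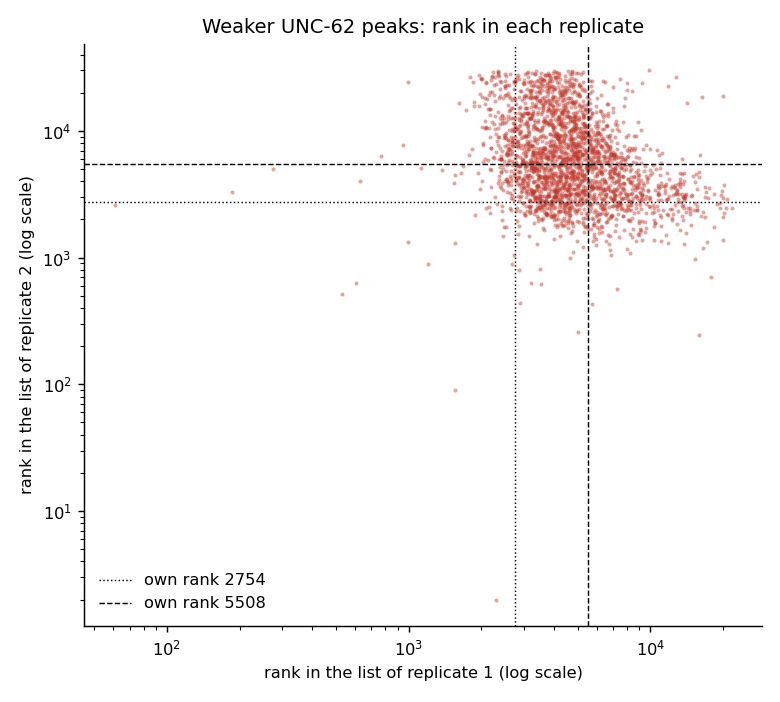
Rank of each of the 2486 weaker peaks in the list of replicate 1 (horizontal, log scale) and of replicate 2 (vertical, log scale), 1 point per peak, with lines at ranks 2754 and 5508. Both ranks are at most 5508 for 719 peaks, and the points spread further in replicate 2, whose quartiles are 3257.5 and 10236.

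The weaker peaks lay near IDR peaks but mostly apart from them. The median distance to the nearest IDR summit was 7006 bp, 268 summits (10.8%) lay within 1000 bp of one and 93 peaks (3.74%) overlapped an IDR peak. In ranks 5509 to 8262 the median distance was 9203 bp.

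Like the IDR list, the weaker peaks lay mostly outside exons, but less so. Of the 2486 summits 58.4% lay in intergenic sequence, that is in no protein-coding gene, (56.4 to 60.3) against 65.8% of IDR summits, an odds ratio of 0.729 (0.651 to 0.817, two-sided Fisher's exact test, adjusted p = 1.39e-07). Coding sequence held 81 summits (3.26%, 2.60 to 4.03) against 27 (0.988%), an odds ratio of 3.37 (2.15 to 5.45, exact test, adjusted p = 5.03e-08). The order went on below: ranks 5509 to 8262 had 51.3% in intergenic and 6.95% in coding sequence, and the nuclear genome is 37.3% and 24.6%. In 3′ untranslated regions lay 2.25% of the weaker and 0.549% of the IDR summits, and in 5′ untranslated or other exon parts 3.74% and 3.22%. The coding odds ratio was 2.12 in ranks 2755 to 4131 alone and 7.53 with peaks ranked by the list of replicate 2. Introns held 32.4% against 29.5% (odds ratio 1.15, exact test, adjusted p = 0.0427), a call kept under 2 of 10 alternatives.

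**Figure D2:**
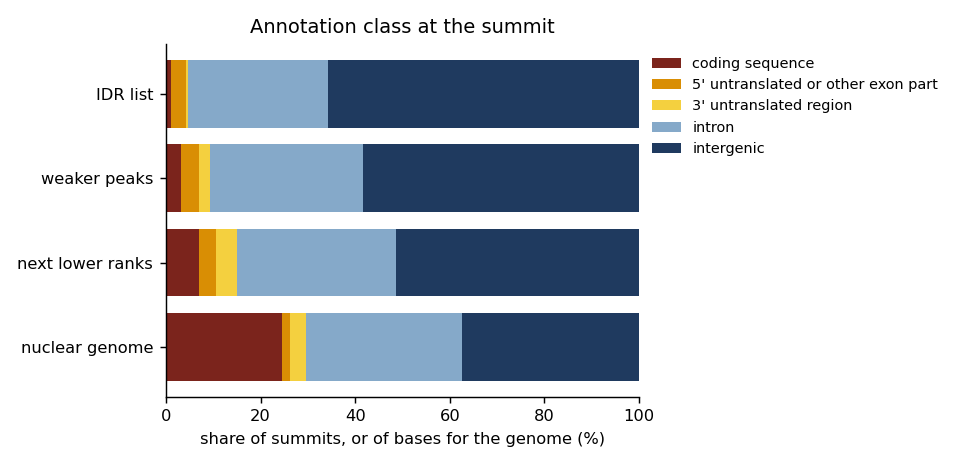
Annotation class at the summit for the IDR list, the weaker peaks and ranks 5509 to 8262, as stacked shares in percent, with the share of bases of the nuclear genome below. The intergenic share runs from 65.8% over 58.4% and 51.3% to 37.3%, and the coding share from 0.988% over 3.26% and 6.95% to 24.6%.

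Distance to gene starts was measured alike in both lists. A start window, which runs from 1000 bp before a protein-coding gene start to 500 bp past it, held 35.8% of weaker summits (33.95 to 37.8) and 36.9% of IDR summits, against 26.4% of the genome. The odds ratio was 0.955 (0.852 to 1.07, two-sided Fisher's exact test, adjusted p = 0.51), and it was 0.87 with a window that reaches 2000 bp upstream (exact test, adjusted p = 0.0294). Chromosome X held 23.1% and 23.6% (odds ratio 0.976, 0.856 to 1.11, exact test, adjusted p = 0.719), with 32.5 weaker peaks per Mb against 17.3 on chromosome V, the lowest. When each autosome was cut into 3 parts of the same length, the middle part held 43.01% of weaker and 46.8% of IDR summits (odds ratio 0.858, exact test, adjusted p = 0.0397), a call kept under 5 of 10 alternatives. Summits in sequence that the reference marks as repeats or low complexity were 16.9% (15.5 to 18.5), against 10.03% in the IDR list, 31.7% in ranks 5509 to 8262 and 35.7% of the genome.

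Genes of transfer RNAs and small nucleolar RNAs were among the places where weaker peaks lay. A summit inside or within 100 bp of a small RNA gene was found for 102 weaker peaks (4.10%, 3.36 to 4.96) against 135 IDR peaks (4.94%), and such places make up 0.405% of the genome. The odds ratio was 0.823 (0.626 to 1.08, two-sided Fisher's exact test, adjusted p = 0.227). For the set taken from replicate 2's own list it was 0.379 (exact test, adjusted p = 1.02e-08). Of 612 tRNA genes 68 (11.1%) had a weaker summit and 75 (12.3%) an IDR summit, and 67 of the 68 had no IDR summit, so the lists together reached 142. Of 346 snoRNA genes, whose products guide the modification of ribosomal RNA, 24 (6.94%) had a weaker and 51 (14.7%) an IDR summit. The 6 microRNA genes with a weaker summit included mir-238, with signals of 58.1 in the pooled list, 20.6 in replicate 1 (rank 6487) and 27.3 in replicate 2 (rank 2210). Of the small RNA peaks 13.7% held GAGAGA (7.71 to 21.96), against 23.1% of the other weaker peaks (21.4 to 24.9). Single tRNA genes are uncertain, since many have near-identical copies elsewhere.

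Sites of UNC-62 and its partners were present under weaker summits but less often than in the IDR list. On either strand within 50 bp of the summit, TGACAG was found in 196 weaker peaks (7.88%, 6.85 to 9.01) against 12.8% of IDR peaks, an odds ratio of 0.583 (0.482 to 0.703, two-sided Fisher's exact test, adjusted p = 2.37e-08 over 8 motifs). In flanks, equally wide windows centred 500 bp below the same summits, it was found in 3.54%, a ratio of centre to flank of 2.23 (two-sided exact McNemar test, adjusted p = 7.68e-11). The composite site was in 39 weaker peaks (1.57%) against 3.59% of IDR peaks (odds ratio 0.428, 0.287 to 0.630, exact test, adjusted p = 1.02e-05), and 13 of the 39 also held TGACAG. It was in 0.241% of the lower flanks, with a ratio to them of 6.5 (exact McNemar test, adjusted p = 5e-07), but in 0.965% of the flanks on the other side, where the ratio was 1.62 and missed the threshold (exact McNemar test, adjusted p = 0.0879).

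Of 3 PBC-Hox sites, 2 were higher at the summit than in the flank, and the differences from the IDR list missed the threshold with the settings used throughout. TGATTGAT was in 2.49% of weaker and 3.40% of IDR peaks (odds ratio 0.726, 0.515 to 1.02, two-sided Fisher's exact test, adjusted p = 0.0802), with a ratio of centre to flank of 3.26 (exact McNemar test, adjusted p = 2.84e-06). The difference from the IDR list passed under 6 of 13 alternatives, with odds ratios from 0.395 to 0.692 in those and from 0.395 to 0.782 over all 13, and with the GC content of the window as a covariate it was 0.498. TGATTTAT was in 2.05% and 2.67% (odds ratio 0.763, 0.520 to 1.11, exact test, adjusted p = 0.167), with a ratio of centre to flank of 2.12 (exact McNemar test, adjusted p = 0.00279). With GC as a covariate its odds ratio was 0.527 and passed. The ratio to the flank lost its call under 3 of 14 alternatives. It was 1.31 with flanks at 300 bp, 1.69 in ranks 4132 to 5508 and 1.62 for the set taken from replicate 1's own list. TGATTAAT passed neither test, at 0.885% against 0.805% of IDR peaks and 0.764% of flanks.

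GA repeats followed the same order as the Meis core. GAGAGA was under 565 weaker summits (22.7%, 21.1 to 24.4) against 31.9% of IDR summits, an odds ratio of 0.627 (0.553 to 0.711, two-sided Fisher's exact test, adjusted p = 8.86e-13). Flanks held it in 5.11%, so the centre was 4.45 times as high (exact McNemar test with adjusted p = 1.57e-74). The E box CANNTG, the site of basic helix-loop-helix factors, was in 42.3% of weaker and 49.4% of IDR peaks (odds ratio 0.751, exact test, adjusted p = 8.21e-07) and in 29.7% of flanks. For the set taken from replicate 2's own list the odds ratios were 0.321 for GAGAGA, 0.389 for TGACAG and 0.597 for the E box. For the weaker peaks with GC as a covariate they were 0.699, 0.546 and 0.733. Neither GAGAGA nor any of the 5 homeodomain sites was found in 65.8% of weaker peaks, against 52.8% of the IDR list and 76.0% of ranks 5509 to 8262. The windows had a mean GC content of 42.5%, against 45.8% in the IDR list and 37.8% in ranks 5509 to 8262, and flanks were near 35% in all 3 (34.7%, 34.95% and 35.2%). The part of base composition in these shares was tested only by the covariate.

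**Figure D3:**
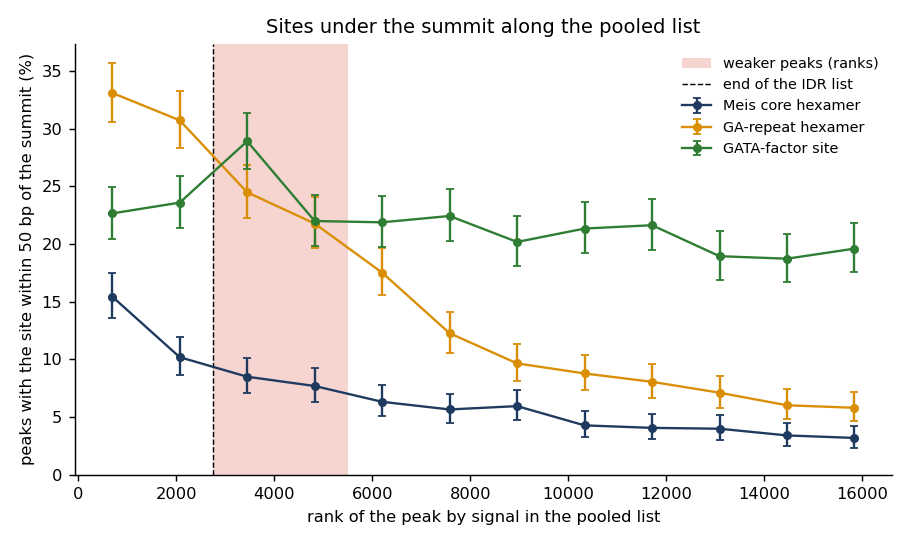
Share of nuclear pooled peaks with the Meis core hexamer (TGACAG), the GA-repeat hexamer (GAGAGA) or a GATA-factor site within 50 bp of the summit, in percent with exact 95% intervals, in 12 rank groups before the replicate filter. The Meis core falls from 15.5% to 3.20% and the GA repeat from 33.1% to 5.81%, while the GATA-factor site is highest, at 28.9%, in ranks 2755 to 4131.

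Along the distance from the summit, TGACAG in the IDR list was highest in the bins at the summit. In weaker peaks the highest bin was also at the summit, the one just above it, with 1.97 occurrences per 100. The bin centred 30 bp above held 1.85 and the one just below the summit 1.69, from 46 and 42 occurrences. GAGAGA was spread more broadly in both lists. In the 20 bp bins on both sides of the summit there were 1.69 and 1.97 occurrences of TGACAG per 100 weaker peaks, against 3.62 and 3.33 per 100 IDR peaks. In the bin centred 250 bp above the summit the values were 0.644 and 1.02, and in that 250 bp below it 0.965 and 0.805. For GAGAGA the bins at the summit held 10.9 and 8.97 occurrences per 100 weaker peaks and 13.1 and 13.4 per 100 IDR peaks. The bin centred 250 bp above the summit held 2.33 per 100 weaker and 2.42 per 100 IDR peaks. In the bin centred 70 bp above the summit GAGAGA still had 10.6 per 100 weaker and 14.9 per 100 IDR peaks.

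**Figure D4:**
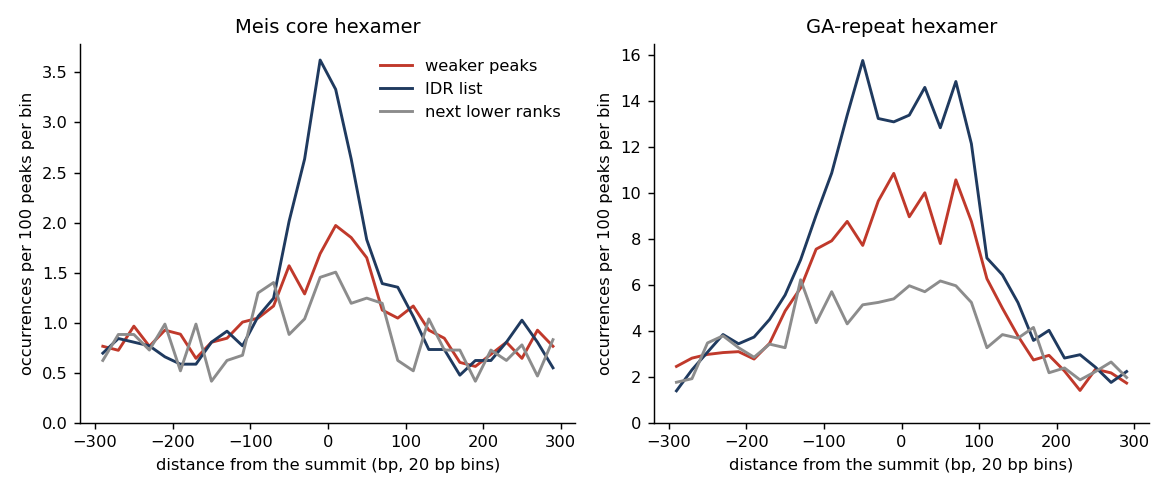
Occurrences per 100 peaks of the Meis core hexamer (left) and the GA-repeat hexamer (right) in 20 bp bins from 300 bp below to 300 bp above the summit, for the weaker peaks, the IDR list and ranks 5509 to 8262. The curves of the weaker peaks lie between the other 2 at the summit, with 1.97, 3.33 and 1.505 for the Meis core in the bin just above it.

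GATA-factor sites were not rarer in weaker peaks than in the IDR list. The site, GATA with A or T before and A or G after, is bound by the ELT and END factors of the embryonic gut and epidermis. It was under 638 weaker summits (25.7%, 23.96 to 27.4) against 23.1% of IDR summits, an odds ratio of 1.15 (1.009 to 1.305, two-sided Fisher's exact test, adjusted p = 0.0572), which missed the threshold. Flanks held it in 21.2%, and the ratio to them was 1.21 (exact McNemar test, adjusted p = 0.00033). Along the ranks the share before the replicate filter was 22.7%, 23.6%, 28.9% (26.5 to 31.4) and 22% (19.8 to 24.3) in the 4 groups of 1377 ranks from the top. The odds ratio was 1.36 in ranks 2755 to 4131 (exact test, adjusted p = 0.000145) and 0.939 in ranks 4132 to 5508. It was 0.907 with GC as a covariate and 0.99 for the set taken from replicate 1's own list. Its direction depends on these choices.

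The share with a GATA-factor site was also described by where the replicates ranked the peak. It was 31.0% (27.6 to 34.5) in the 719 peaks within the 5508 strongest of both replicates, 22.5% (19.95 to 25.2) in the 995 of replicate 1 alone, 25.8% (22.1 to 29.7) in the 535 of replicate 2 alone and 22.4% (17.2 to 28.2) in the 237 of neither. TGACAG was in 7.09% (5.33 to 9.22), 8.14%, 7.85% and 9.28% (5.91 to 13.7) in the same order. GAGAGA was in 24.8%, 24.2%, 20.2% and 16.0% (11.6 to 21.3), and intergenic summits were 60.9%, 59.3%, 55.5% and 53.2%. Mean GC content was 42.8%, 44.7%, 38.9% and 40.7%. These groups were formed after the data were seen and the differences between them were not tested.

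Over all hexamers, AT-rich words were commoner in weaker peaks and GA-rich words rarer. Each hexamer was counted together with its reverse complement, and of the resulting 2080 words 138 (6.63%) were higher and 106 (5.1%) lower than in the IDR list by two-sided Fisher's exact tests adjusted over all of them. The 138 had on average 1.16 G or C bases of 6 and the 106 had 3.30. AAAAAA was in 24.4% of weaker and 12.01% of IDR windows (exact test, adjusted p = 2.72e-28), but in 43.6% of the weaker peaks' own flanks. The lower hexamers were led by GAGAGA and AGAGAG (19.3% against 27.7%, exact test, adjusted p = 2.45e-10) and included ACGCAG, in 8.65% against 14.2%. Against their own flanks 604 hexamers (29%) were higher and 350 (16.8%) lower by exact McNemar tests, with CGTCTC in 12.3% of centres and 2.49% of flanks.

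The strongest weaker peaks lay at genes of varied function. Of the 12 strongest, with signals from 59.7 to 59.9, 6 had their summit in the start window of a gene. These were agef-1, which encodes an exchange factor for Arf GTPases, sec-24.1, spr-2, a suppressor of presenilin, ant-1.1, a mitochondrial adenine nucleotide translocator, EGAP1.1 and eat-6. The other peaks were nearest to or inside Y67A10A.7, C36B1.9, B0273.115, the epsin gene epn-1, the ABC transporter gene pgp-2 and W05F2.4. At spr-2 the replicates' signals were 38.6 (rank 2803) and 25.8 (rank 2455), and its summit, 178 bp upstream, held TGATTGAT. At agef-1 they were 29.8 (rank 3987) and 29.3 (rank 1971), 202 bp upstream. At ant-1.1 replicate 1 gave 42.4 (rank 2458) and replicate 2 gave 17.4 (rank 5423), 59 bp upstream.

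The unc-62 gene and the Hox genes that already had IDR peaks also held weaker ones. The insertion wgIs600 also holds unc-62, so signal from it and from the native gene cannot be told apart at this locus. The body of unc-62 with 5 kb upstream held 4 weaker and 13 IDR summits. The weaker ones included chrV:4505876-4506251 in an intron, with a signal of 55.5, and chrV:4500998-4501373 in an intron, with 49.1 and replicate ranks of 5926 and 6626. Another, with a signal of 55.5 as well (chrV:4506875-4507250), had ranks of 61 and 2601 and its summit 215 bp from an IDR summit. The rank of 61 may be that of the neighbouring IDR peak. The fourth, with a signal of 50.8, had the interval of a stronger IDR peak (chrV:4499189-4499824) with a summit 203 bp from it, and its rank of 2 in replicate 2 is that neighbour's. Within 20 kb of the gene start, lin-39, a Hox gene of the mid-body, had 7 weaker summits, mab-5, a Hox gene of the posterior body, had 6, and ceh-13, of the anterior class, had 2, both also counted for lin-39. The strongest at lin-39 had a signal of 50.995 (ranks 3125 and 8012 in the replicates) and the strongest at mab-5 48.2 (ranks 3186 and 12595). The PBC gene ceh-20 had 2, at 11183 and 16217 bp downstream of the start, and the nearer held TGACAG. None lay within 20 kb of ceh-40 or of the posterior Hox genes egl-5, nob-1 and php-3. Of the 6 Hox and 5 TALE homeobox genes, none had a weaker summit in the start window, counts of 0 whose exact intervals reach 45.9% and 52.2%.

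The weaker peaks brought many further genes into reach of a summit. Of 19973 protein-coding genes 1078 (5.4%) had a weaker summit in the start window, 1037 (5.19%) of them with no IDR summit there, against 1234 (6.18%) with an IDR summit. The lists shared 41 genes and reached 2271 (11.4%) together. Those 41 are 3.32% of the 1234 genes with an IDR summit, beside 5.53% with a weaker summit among the 18739 genes without one. Most genes of any list would have no IDR summit, and the difference was not tested. Of the 891 weaker summits in any start window 184 lay in the windows of 2 genes and 9 in those of 3 or more, so genes are not independent counts. On X the share was 6.77% of 2731 genes and on the autosomes 5.18% of 17242. Gene lists are set beside these shares, with no test. The site counts given for some lists rest on few peaks and were not tested, and not every site is given for every list. For the GATA-factor site, counts not given below ran from 0 of 7 chaperone and proteasome peaks and 0 of 5 panneuronal peaks to 2 of 2 ceh homeobox peaks. No list is set apart by its site count.

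Ribosomal protein and body wall muscle genes, which the IDR list already held often, also had weaker summits, at 16.5% and 24.2% of their genes. Of 33 muscle genes 8 (24.2%, 11.1 to 42.3) had a weaker summit, 6 of them with no IDR summit, so that 25 (75.8%) had either. The myosin heavy chain gene myo-3 had a signal of 47.1, with 50.5 in replicate 1 (rank 1888) and 27.6 in replicate 2 (rank 2166), 462 bp upstream. That places it high in both replicates. The obscurin-like gene unc-89 had 53.5 (38.3, rank 2848, and 12.6, rank 12250; 204 bp upstream) and mlc-1, a myosin regulatory light chain gene, had 53.4 (32.3, rank 3552, and 19.9, rank 3966; 144 bp upstream). The others were act-1, act-2 and act-4, actin genes of near-identical sequence that are uncertain one by one, lev-11, which encodes tropomyosin, and pat-4, the integrin-linked kinase gene. Of the 8 peaks 5 held a GATA-factor site, 2 held GAGAGA and 0 held TGACAG. The shares over all weaker peaks were 25.7%, 22.7% and 7.88%.

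Of 79 ribosomal protein genes 13 (16.5%, 9.06 to 26.5) had a weaker summit, in 12 peaks, and 55 (69.6%) had one of either list. At rpl-31 the signal was 58.5, with 32.4 in replicate 1 (rank 3543) and 26.1 in replicate 2 (rank 2396), 275 bp upstream. At rpl-19 it was 55.7 (36.3, rank 3052, and 18.2, rank 4853) in an intron 391 bp downstream, and at rpl-36 it was 52.05 (41.04, rank 2581, and 15.5, rank 7249), 398 bp upstream. Overlap by both replicates' lists is part of the rule and holds for all 2486 weaker peaks, so it sets none of these genes apart. The rpl-31 peak also lay in the start window of sac-2. None of the 12 peaks held TGACAG and 2 held GAGAGA, beside 7.88% and 22.7% of all weaker peaks.

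**Figure D5:**
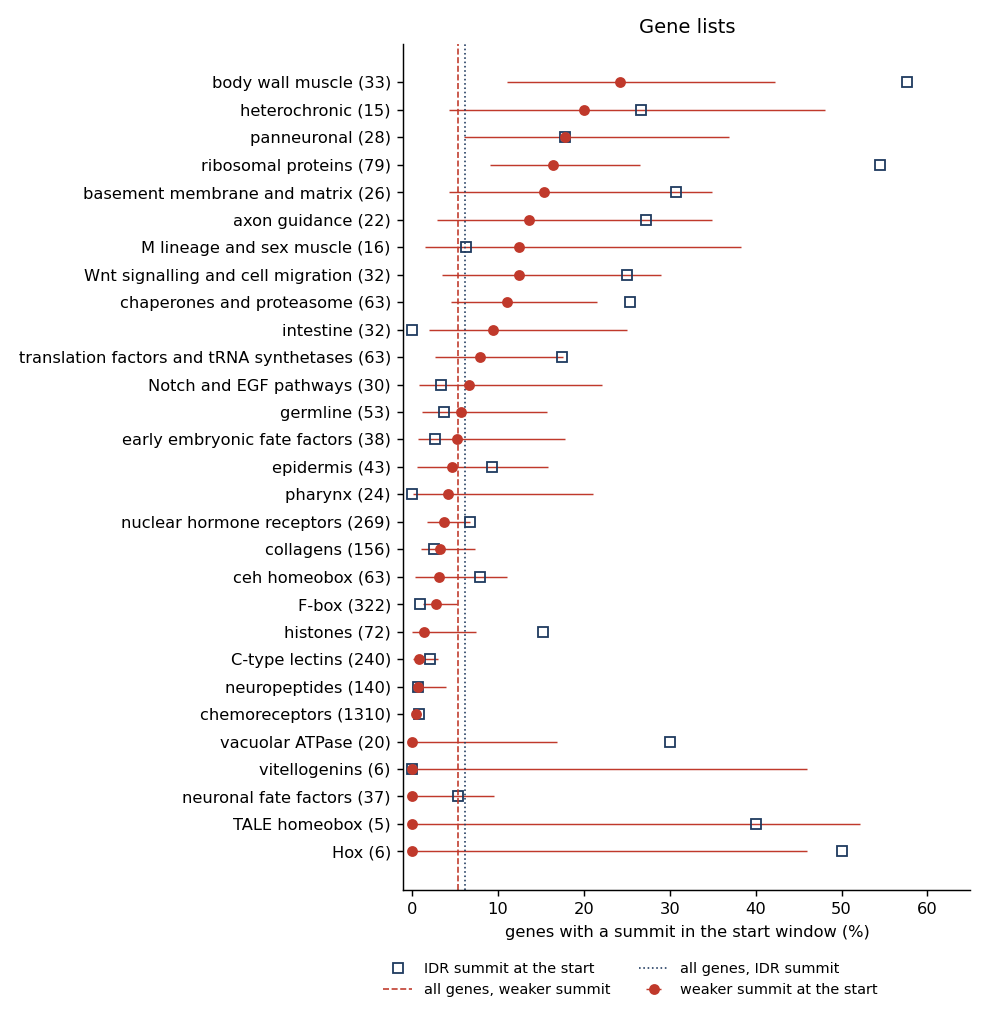
Share of the genes of each of 29 lists (number of genes in brackets) with a weaker summit in the start window, in percent with exact 95% intervals (filled points), and with an IDR summit (open squares). Dashed and dotted lines give the shares of all genes, 5.4% and 6.18%, and body wall muscle is highest for the weaker peaks at 24.2%.

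Other genes of protein synthesis and turnover had weaker summits in part. Of 63 chaperone and proteasome genes 7 (11.1%, 4.59 to 21.6) had one and 23 (36.5%) had either, among them cct-6 of the chaperonin (signal 58.5), rpn-11, a deubiquitinase of the proteasome lid (56.9, with the summit 1 bp from the start), and pas-3 of its core (44.1). Of 63 translation factor and tRNA synthetase genes 5 (7.94%, 2.63 to 17.6) had one. They included eif-3.E (58.9), cars-1, the cysteinyl-tRNA synthetase gene (58.1, in coding sequence), and ifg-1, which encodes eIF4G (54.8). Their 5 peaks included 2 with TGACAG, 1 of them at cars-1, beside 7.88% of all weaker peaks. None of 20 vacuolar ATPase genes had one (up to 16.8%), while 6 had an IDR summit. The cct-6 peak also lay in the start window of alh-9.

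Genes of signalling, guidance and the extracellular matrix had weaker summits in small numbers, with wide intervals. Of 32 Wnt and cell migration genes 4 (12.5%, 3.51 to 28.99) had one and 11 (34.4%) had either. The Frizzled gene mig-1 had a signal of 51.04 (29.4, rank 4062, and 23.02, rank 3004), mig-13, which guides neuroblast migration, had 45.97, and the Wnt ligand gene mom-2 had 35.6, near the lower end of the range, with rank 22253 in replicate 2. Of 22 axon guidance genes 3 (13.6%, 2.91 to 34.9) had one, namely the syndecan gene sdn-1 (47.9), the semaphorin gene smp-2 (45.4) and the ephrin gene efn-2 (37.8). All 3 peaks held a GATA-factor site, beside 25.7% of all weaker peaks. Of 26 basement membrane and matrix genes 4 (15.4%, 4.36 to 34.9) had one. They were the glypican gene lon-2 (59.5, with ranks 11013 and 1349 in the replicates), the type IV collagen genes emb-9 (47.3) and let-2, and the laminin beta gene lam-1 (38.1). Of the 4 peaks 3 held GAGAGA, beside 22.7% of all weaker peaks. Of 30 Notch and EGF pathway genes 2 (6.67%) had one, the F-box gene sel-10 (49.8) and the Notch receptor gene lin-12 (43.4), close to the share of all genes.

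Neuronal genes fell into groups with different counts. Of 28 panneuronal genes 5 (17.9%, 6.06 to 36.9) had a weaker summit, so that 10 (35.7%) had either. All 5 were without an IDR summit, as were 1037 of the 1078 over all genes. They were ric-19, a dense core vesicle gene (56.6, with ranks 2648 and 12524), the synaptobrevin gene snb-1 (52.8, with 4230 and 2625), the carboxypeptidase E gene egl-21 (42.02, with 11833 and 22529), unc-26, which encodes synaptojanin, and unc-33, a CRMP homolog. Of 37 neuronal fate factors 0 had one, which allows up to 9.49%, and of 140 neuropeptide genes 1 had one, flp-23 (0.714%, up to 3.92%), whose summit also lay at a small RNA gene.

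Lists of other tissues and stages had few genes each. Of 32 intestinal genes 3 (9.38%, 1.98 to 25.02) had a weaker summit while none had an IDR summit. They were erm-1, which links the apical membrane to actin (52.3, ranks 2443 and 13246), gob-1, a phosphatase gene (46.3, ranks 3714 and 6149), and the cathepsin L gene cpl-1 (45.9, ranks 4050 and 7632). Of the 3 peaks 1 held a GATA-factor site, beside 25.7% of all weaker peaks. No difference of this list from other genes was tested. Of 24 pharynx genes tbx-2, a T-box factor gene, had one (38.6), of 43 epidermal genes the alpha-catenin gene hmp-1 and the patched-related gene ptr-4 had one, and of 6 vitellogenin genes 0 did. Of 15 heterochronic genes, which time larval development, 3 (20%, 4.33 to 48.1) had one. They were ain-1, a GW182-like factor of microRNA silencing (59.2, with an IDR summit 201 bp away outside the window), hbl-1, the worm hunchback gene (46.7), and the Argonaute gene alg-1 (39.4). In the M lineage list of 16 genes sma-9 (57.9) and lin-12 had one, in the early embryonic list of 38 the polarity kinase gene pkc-3 (41.7) and the muscle factor gene unc-120 (38.6), and in the germline list of 53 ekl-1 (43.7), nos-3 (40.8) and car-1 (40.5).

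Large gene families had weaker summits at 0.458% to 3.72% of their genes, beside 5.4% of all genes. Of 1310 chemoreceptor genes 6 (0.458%, 0.168 to 0.994) had one, led by str-12 (signal 51.96), whose peak also lay in the window of the F-box gene fbxa-153. Of 322 F-box genes 9 (2.80%, 1.29 to 5.24) had one, in 8 peaks, against 3 (0.932%) with an IDR summit, and the strongest, at fbxa-83 (57.9), also lay at a snoRNA gene. The shares were 0.833% of 240 C-type lectin genes (clec-53 and clec-126), 3.21% of 156 collagen genes (col-63, col-117 and col-3 led) and 3.72% of 269 nuclear hormone receptor genes (nhr-149, nhr-13 and nhr-59 led). The peak of col-117 and col-3 is the same, and that of nhr-59 also lay in the window of fbxa-137. Of 72 histone genes 1 (1.39%, up to 7.50%) had one, his-15, against 11 (15.3%) with an IDR summit. Of 63 ceh homeobox genes 2 (3.17%) had one, the engrailed homolog ceh-16 (53.004) and ceh-89 (44.2).

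Some loci held several weaker summits with few or no IDR peaks. The body and 5 kb upstream of unc-53, a cytoskeletal regulator of cell and axon migration that spans 31.4 kb, held 7 weaker and 0 IDR summits, all 7 in introns, with signals from 36.4 to 53.9, and 2 of them with TGACAG. ZK470.2 (12.7 kb) held 7 and 0, with signals from 35.4 to 50.9. The kinase gene mbk-2 (26.8 kb) held 7 and 3, all in introns, but 3 of the 7 overlap 1 peak of replicate 1 (rank 3029), so these are fewer separate regions than the count gives. Long genes offer more room, and the counts were not set against gene length.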

How the data were processed

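Per the labels, chromatin was immunoprecipitated for UNC-62 from 2 biological replicates of 1 group. The authors deposited peak lists for each replicate, the pooled reads and the IDR step, made with a control file per the deposited descriptions of the files. Column 7 is the peak signal as deposited by the authors, and column 9 is the −log10 q value as deposited. The sources used here do not name the aligner, caller, IDR threshold or depth. Signals were used only within a list, to rank and describe.

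Peaks were ranked by signal, with ties by −log10 q. Each was matched to the overlapping replicate peak with the nearest summit. Sequence came from RefSeq's WBcel235 (ce11) and genes from Ensembl release 115. Coding sequence had priority, then 5′ untranslated regions, 3′ untranslated regions, other exon parts, introns and intergenic sequence. The 5′ untranslated regions and other exon parts were counted together. Motifs were searched on both strands, and TGACAG is part of the composite site. Weaker and IDR peaks were compared by two-sided Fisher's exact tests, centre and flank by exact McNemar tests, with Benjamini-Hochberg adjustment over 7 location measures, 8 motifs or 2080 hexamers (threshold 0.05). Peaks share 1 pool of reads, so p covers counting error, not the spread between cultures. Python 3.11.15, numpy 2.4.6, scipy 1.17.1, pandas 2.3.3 and statsmodels 0.14.6 were used, and the tests were checked on simulated data.

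The members, motifs and 29 gene lists were chosen with earlier results of these data known. Of 447 listed symbols 7 had no gene. Genes named are unc-62, ceh-20, ceh-40 and the Hox genes, those of the 12 strongest peaks, up to 3 per list with the strongest weaker and no IDR summit at the start, and the 3 with most weaker summits. Further genes of a list with 8 or fewer hits were named after their values were seen. The ce10 lists were not used here. Alternatives covered the replicate filter, the ranking, the windows, the flanks and GC content.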

Additional observations from a re-analysis of the deposited data

How the results depend on the processing

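Over 17 alternatives 356 values were recomputed, and 304 kept their direction and side of the threshold or, for counts, stayed within 1.5 times. The lower shares of intergenic summits, TGACAG, the composite site, GAGAGA and E boxes than in the IDR list, and the higher coding share, passed under all alternatives run for them. No paired analysis was possible because there is 1 group. Without the filter on replicate 1 or on replicate 2 there were 2537 or 2701 members, while both replicates' reads stay in the pool; the intron call was lost in both cases and the call on the middle of the autosomes without replicate 1. Reversed in direction, none past the threshold, were the gene-start window (odds ratio 1.03 for summits at least 1000 bp from IDR summits, 1.04 with ranks from replicate 1), chromosome X (1.01 in the weaker ranks, 4132 to 5508), TGATTAAT (0.943 in the weaker ranks, 0.948 with windows of 100 bp to each side, 0.702 with GC as covariate, and a ratio to the flank of 1 with 25 bp) and the GATA-factor site (0.939 in the weaker ranks, 0.99 with ranks from replicate 1, 0.907 with GC). The GATA odds ratio passed at 1.15 with ranks by −log10 q (Fisher's exact test, adjusted p = 0.0419) and at 1.36 in the stronger ranks, and its ratio to the flank was 1.03 and lost in the weaker ranks. The composite ratio was 1.62 and lost on the other flank. Hexamers lower than in the IDR list were 29 in the stronger ranks, 720 with ranks from replicate 2, 48 with 25 bp and 200 with 100 bp, and those higher were 34, 405 and 68 in the first 3 of these. Hexamers above the flank were 283 in the weaker ranks and 77 with ranks from replicate 2. Genes with a weaker summit were 566 in the stronger and 519 in the weaker ranks, and 547 and 497 had no IDR summit. Halving the ranks leaves fewer peaks by construction, and for the rest the cause was not tested. Depth is unknown.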
